A study of Mus with 8 samples.

Results

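The hyaluronan genes are 6 genes that make, cut and bind hyaluronan: the synthases Has1, Has2 and Has3, the hyaluronidases Hyal1 and Hyal2, and the receptor Cd44. Their members are the non-control probes of the array whose RefSeq accession maps to these genes, 8 probes of 56605 on the array and 6 of its 22911 named genes. Cd44 has 3 probes and each other gene has 1. RNA was measured in 8 whole subcutaneous tumours grown from transplanted cells of Pan02, a pancreatic cancer line of the mouse. Mutant tumours (n = 4) grew in B6 mice of genotype Ext1 flox/flox; S100a4-Cre, and Control tumours (n = 4) grew in wild-type B6 mice; all were removed 36 to 40 days after the same cells had been transplanted. The S100a4 promoter is active in fibroblasts and also in other stromal cells, the transplanted cells keep intact Ext1 in both groups, and mouse age is not given in the sources used here. Each tumour had 1 Cy3 array.

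Hyaluronan is a long unsulfated glycosaminoglycan built at the plasma membrane by the synthases, which join UDP-glucuronic acid and UDP-N-acetylglucosamine and push the chain out of the cell. Unlike heparan sulfate, whose chain is elongated by the Ext1 enzyme, it is made without a core protein. Hyal2, held on the cell surface, cuts large chains, Hyal1 cuts fragments in lysosomes, and Cd44 is the main cell-surface receptor. Hyaluronan made by fibroblasts and tumour cells is abundant in the stroma of pancreatic cancers.

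An array had 61.5% to 67.2% of its probes well above background and 0 saturated spots. A level is the log2 signal with the array's 75th percentile set to 0, a difference is Mutant minus Control, and a level of 1 probe is not set against that of another. Ext1 read 2.93, 3.00, 3.41 and 3.24 in Mutant tumours 1 to 4, against 3.04, 3.60, 3.64 and 2.02 in Control tumours 1 to 4. The Ext1 groups overlapped (limma adjusted p = 1.00), and since the cancer cells carry Ext1 and the probe's place in the gene is not known here, it checks neither the deletion nor the labels. The signal of Epcam, a defining epithelial marker, stood clear of background on 0 of 8 arrays, while 6 of 8 epithelial markers were measured. The arrays lay on 1 slide, in 2 rows that each held 2 tumours of each group.

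None of the hyaluronan genes passed the test between hosts. Of the 6 genes, 5 passed the filter for dim probes, which asks for a signal clear of background on 4 or more of the 8 arrays, and entered the limma fit, and 3 of these lay below 0 and 2 above, with a median difference of -0.28. Over all 16068 genes tested the median difference was 0.01 and 52.4% lay above 0. At an adjusted p under 0.05 limma called 0 of the 5, where 0% of all genes were called. At an unadjusted p under 0.05 it also called 0 of the 5, against 2.91% of all genes. The Mutant and Control values did not separate in any of the 5, against 1.42% of all genes.

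**Figure D1:**
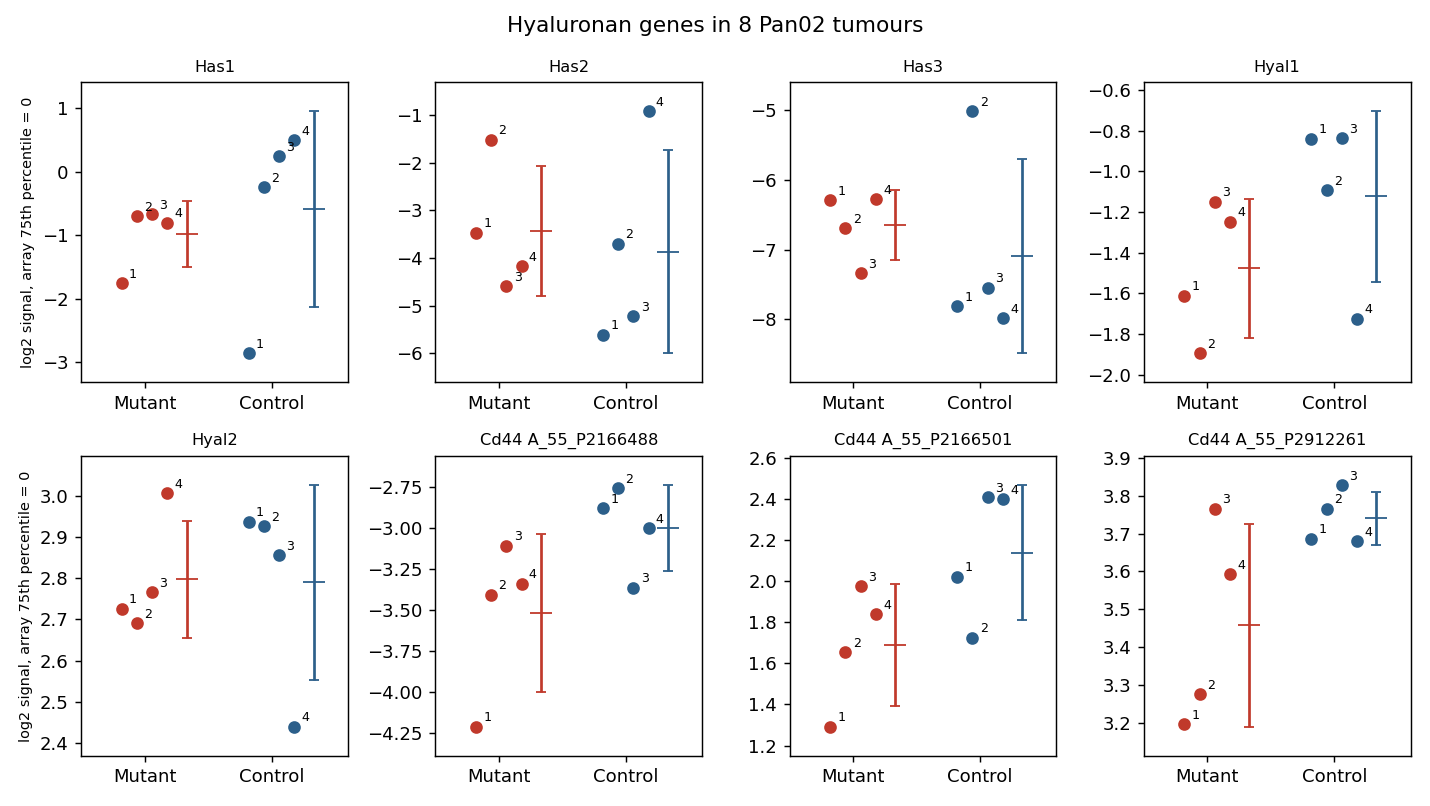
Log2 signal of each hyaluronan probe (vertical axes, array 75th percentile at 0, each panel with its own range) in 4 Mutant tumours (red) and 4 Control tumours (blue), numbered as labelled, with the group mean and SD beside them. Has1 and Has2 spread over more than 1 unit within groups, Hyal2 stays between 2.44 and 3.01, and Mutant tumours 1 and 2 are the lowest 2 tumours in all 3 Cd44 panels.

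Has1, a synthase known for induction in inflamed and stressed tissue, differed more among tumours of 1 host type than between hosts. Its level was -1.75, -0.70, -0.67 and -0.80 in Mutant tumours 1 to 4, and -2.85, -0.25, 0.24 and 0.49 in Control tumours 1 to 4. Control 1 was the lowest tumour of all, and the 3 other Control tumours lay above every Mutant tumour. The mean was -0.98 ± 0.52 in Mutant and -0.59 ± 1.54 in Control tumours (SD, n = 4 each). The difference of -0.39 had a standard error of 0.72 and a 95% interval of -2.05 to 1.27 (limma adjusted p = 1.00; two-sided exact permutation p = 0.629), so that values from 0.241-fold to 2.41-fold lay within it. Single tumours decided its size: the difference was -1.14 without Control 1 (limma unadjusted p = 0.00954, adjusted p = 1.00), -0.13 without Mutant 1, -0.11 without Control 3 and -0.03 without Control 4. It was 0.32 within the first slide row and -1.10 within the second.

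Has2, the synthase that mesenchymal cells rely on and that the embryonic heart requires, varied widely over the tumours. Its level was -3.47, -1.52, -4.60 and -4.17 in Mutant tumours 1 to 4, and -5.61, -3.70, -5.22 and -0.92 in Control tumours 1 to 4. The highest tumour of each group, Mutant 2 and Control 4, stood well above the others, and the groups overlapped throughout. Control 1 was the only array on which Has2 was not well above background. The mean was -3.44 ± 1.36 in Mutant and -3.87 ± 2.13 in Control tumours (SD, n = 4 each). The difference was 0.43 with a standard error of 1.11 and a 95% interval of -2.15 to 3.00 (limma adjusted p = 1.00; two-sided exact permutation p = 0.686). Its sign turned without Mutant 2 (-0.21), Control 1 (-0.15) or Control 3 (-0.02), and it was 1.41 without Control 4 and 0.81 without Mutant 3. Within the slide rows it was 2.17 and -1.31, and it was 0.03 with normexp background correction and 1.23 with array weights. The within-group SD of Has2, 1.79, was larger than that of 97.6% of the genes tested, and that of Has1, 1.15, larger than that of 92.7%.

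From tumour to tumour the Has2 level ran beside that of Col1a1, which was picked for its likeness to Has2. Col1a1, the main chain of type I collagen, read 6.07, 7.63, 5.15 and 5.61 in Mutant tumours 1 to 4, and 4.63, 6.24, 4.94 and 8.23 in Control tumours 1 to 4. These values put the tumours in the same order as Has2 except for Mutant 1 and Control 2, which changed places. Among 14747 other genes with a name proper and a value on each array, the 3 with the highest Pearson r to Has2 were Arxes2 (r = 1.00, rho = 1.00), Col1a1 (r = 0.99, rho = 0.98) and the zinc finger gene Bnc2 (r = 0.99, rho = 0.98), over 8 tumours. Without Control 4 and Mutant 2, the tumours farthest from the median of Has2, r was 0.99, 0.97 and 0.98. These are the highest of many correlations over few tumours that share 1 slide and 1 scaling, and are given as a description. Arxes2 was above background on 4 Mutant and 2 Control arrays, and Bnc2 on 3 and 2.

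All 12 fibroblast markers, Col1a1 among them, were measured, none of them at background. Their mean level, each gene centred over the 8 tumours, was 0.21, 1.12, -1.003 and -0.15 in Mutant tumours 1 to 4, and -0.82, -0.28, -1.33 and 2.26 in Control tumours 1 to 4. Mutant 2 and Control 4 were highest here as for Has2. They were also the highest tumours for T cell markers (0.66 and 1.23) and B cell markers (0.55 and 0.29). The same held for lymphatic endothelial markers (1.69 and 3.29, from 2 measured members), but not for the other cell type marker lists. Having these 2 tumours highest is thus not particular to fibroblast markers. Of the measured lymphatic members, Pdpn and Lyve1, Pdpn is also on the fibroblast list. Whether any list follows Has2 more closely than another over all 8 tumours was not tested. The part of fibroblast or other cell content in the Has2 values was not tested. In whole tumours, fewer cells of a type and less RNA per cell cannot be told apart.

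**Figure D2:**
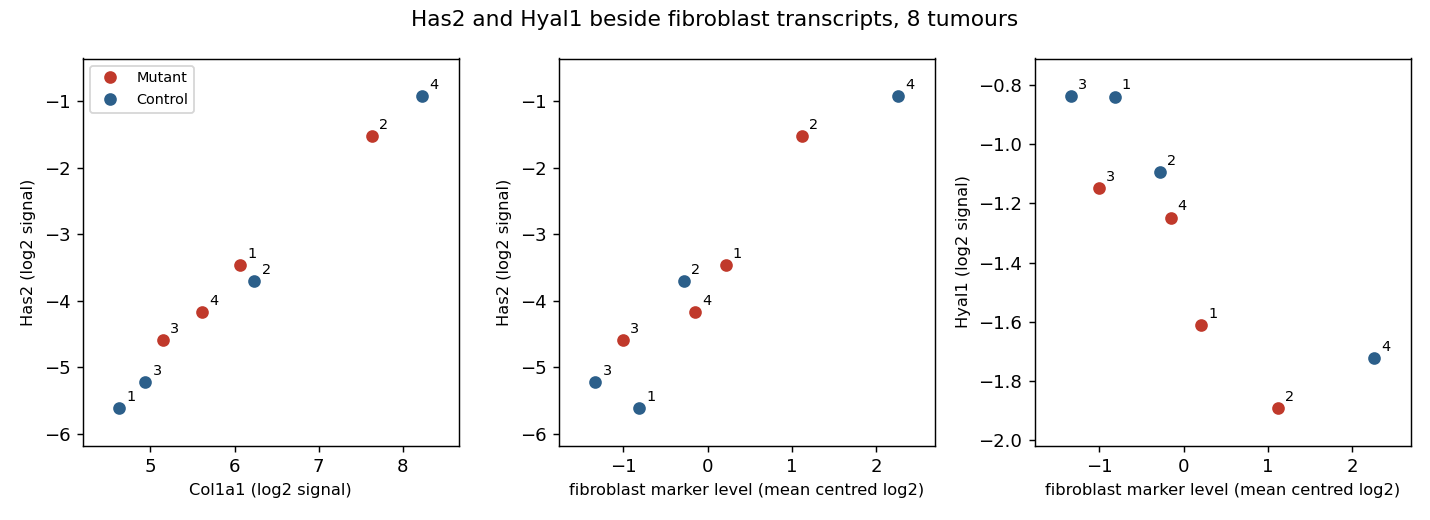
Has2 against Col1a1 (left), Has2 against the mean level of 12 fibroblast markers (middle) and Hyal1 against the same markers (right), all on log2 axes, for 4 Mutant (red) and 4 Control (blue) tumours numbered as labelled. Mutant 2 and Control 4 have the highest fibroblast marker levels, the highest Has2 levels, -1.52 and -0.92, and the lowest Hyal1 levels, -1.89 and -1.72.

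Has3, a synthase linked with epithelial cells, was hardly detected. Its signal stood clear of background on 0 of 4 Mutant arrays and on 1 of 4 Control arrays, Control 2, where it read -5.02. The remaining readings, between -7.34 and -6.28 in Mutant tumours and between -7.98 and -7.55 in Control tumours, are at background. These Mutant readings lie above these Control readings, but at background the order is not interpreted. Has3 therefore did not enter the filtered fit, and neither a fold nor a direction is read from it.

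Hyal1, the lysosomal hyaluronidase, averaged less in Mutant tumours, by an amount within the spread between tumours. Its level was -1.61, -1.89, -1.15 and -1.25 in Mutant tumours 1 to 4, and -0.84, -1.09, -0.84 and -1.72 in Control tumours 1 to 4. All 4 Mutant tumours lay below Control 1, 2 and 3, and Control 4 lay among the Mutant tumours. The mean was -1.48 ± 0.34 in Mutant and -1.12 ± 0.42 in Control tumours (SD, n = 4 each). The difference of -0.35, or 0.783-fold, had a standard error of 0.25 and a 95% interval of -0.93 to 0.23 (limma adjusted p = 1.00; two-sided exact permutation p = 0.229). Without Control 4 it was -0.55 (limma unadjusted p = 0.0288, adjusted p = 0.885), and without Mutant 2 it was -0.21. Within the first slide row it was -0.79 and within the second 0.08. The 3 tumours with the least Hyal1 transcript, Mutant 1, Mutant 2 and Control 4, were the 3 with the highest fibroblast marker levels, 0.21, 1.12 and 2.26. They were also the 3 highest for macrophage markers (0.44, 0.17 and 0.45) and B cell markers (0.09, 0.55 and 0.29), though not for the other cell type marker lists. The part of fibroblast or other cell content in this difference was not tested.

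Hyal2, the cell-surface hyaluronidase, varied little. Its level was 2.73, 2.69, 2.77 and 3.01 in Mutant tumours 1 to 4, and 2.94, 2.93, 2.86 and 2.44 in Control tumours 1 to 4. Control 4 was the lowest and Mutant 4 the highest tumour, and the groups overlapped. The mean was 2.80 ± 0.14 in Mutant and 2.79 ± 0.24 in Control tumours (SD, n = 4 each). The difference of 0.01 had a standard error of 0.15 and a 95% interval of -0.33 to 0.34, or 0.796-fold to 1.27-fold (limma adjusted p = 1.00; two-sided exact permutation p = 1). Its sign turned without Control 4 (-0.11) or Mutant 4 (-0.06), and within the slide rows the difference was -0.22 and 0.24. The within-group SD of Hyal2, 0.20, compared with a median of 0.27 over all genes.

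Cd44, the hyaluronan receptor of many stromal, immune and cancer cells, had the smallest p of the 6 genes and ranked 869th of 16068. All 3 of its probes carry the same RefSeq accession and were well above background on every array; which exons they read is not known here. The brightest, A_55_P2912261, stands for the gene in the fit. It read 3.20, 3.28, 3.77 and 3.59 in Mutant tumours 1 to 4, and 3.69, 3.77, 3.83 and 3.68 in Control tumours 1 to 4. Mutant 1, 2 and 4 lay below every Control tumour, and Mutant 3 lay among the Control tumours. The mean was 3.46 ± 0.27 in Mutant and 3.74 ± 0.07 in Control tumours (SD, n = 4 each). The difference of -0.28, or 0.822-fold, had a standard error of 0.15 and a 95% interval of -0.62 to 0.06 (limma unadjusted p = 0.0896, adjusted p = 1.00; two-sided exact permutation p = 0.114). The smallest p that 4 against 4 tumours allow in that permutation test is 0.0286.

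The other Cd44 probes lay on the same side of 0. Probe A_55_P2166501 read 1.29, 1.65, 1.97 and 1.84 in Mutant tumours 1 to 4, and 2.02, 1.73, 2.41 and 2.40 in Control tumours 1 to 4. Only Control 2 fell within the Mutant range, and the difference was -0.45 with a 95% interval of -0.94 to 0.05 (two-sided exact permutation p = 0.114). Probe A_55_P2166488 read -4.21, -3.41, -3.11 and -3.34 in Mutant tumours 1 to 4, and -2.88, -2.76, -3.36 and -3.00 in Control tumours 1 to 4. Here Control 3 fell within the Mutant range, and the difference was -0.52 with a 95% interval of -1.10 to 0.07 (two-sided exact permutation p = 0.0857). In a fit of every probe on the array, which called 0 probes (0%) at an adjusted p under 0.05 and 2.76% at an unadjusted p under 0.05, both had an adjusted p of 1.00 (limma). Because the probes read 1 gene in the same 8 tumours, they are not separate evidence.

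Mutant 1 and Mutant 2 had the lowest Cd44 reading of the 8 tumours on each of the 3 probes. The brightest probe differed by -0.49 within the first slide row, which holds these tumours, and by -0.07 within the second. Probe A_55_P2166488 likewise differed by -0.99 and -0.04, but A_55_P2166501 differed by -0.40 within the first row and by -0.50 within the second, which holds neither tumour. Without Mutant 1 the brightest probe's difference was -0.20, and without Mutant 3 it was -0.38 (limma unadjusted p = 0.0245, adjusted p = 1.00). With the 3 probes averaged the difference was -0.42 (limma unadjusted p = 0.0408, adjusted p = 1.00). Skeletal muscle markers were higher in Mutant tumours in 12 of 12 members, with a mean level from -0.90 to 2.92 in Mutant and from -3.54 to 0.23 in Control tumours. Mutant 1 and Mutant 2 had the highest muscle levels, 2.05 and 2.92. Epithelial markers were lower in 6 of 6 measured members, at -0.51 to -0.13 in Mutant and -0.24 to 0.98 in Control tumours. Their lowest levels were in Mutant 4 (-0.51) and Control 2 (-0.24), while Mutant 1 and Mutant 2 were at -0.14 and -0.17. At an unadjusted p under 0.05, 7 of the 12 muscle markers were higher and 2 of the 6 epithelial markers lower, against 2.91% of all genes, and at an adjusted p under 0.05 0 of either list were called (limma). T cell markers (8 of 8 measured) and keratinocyte markers (4 of 4) were also higher in every measured member, with 0 at an unadjusted p under 0.05 (limma). The part of any cell type in the Cd44 values was not tested.

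**Figure D3:**
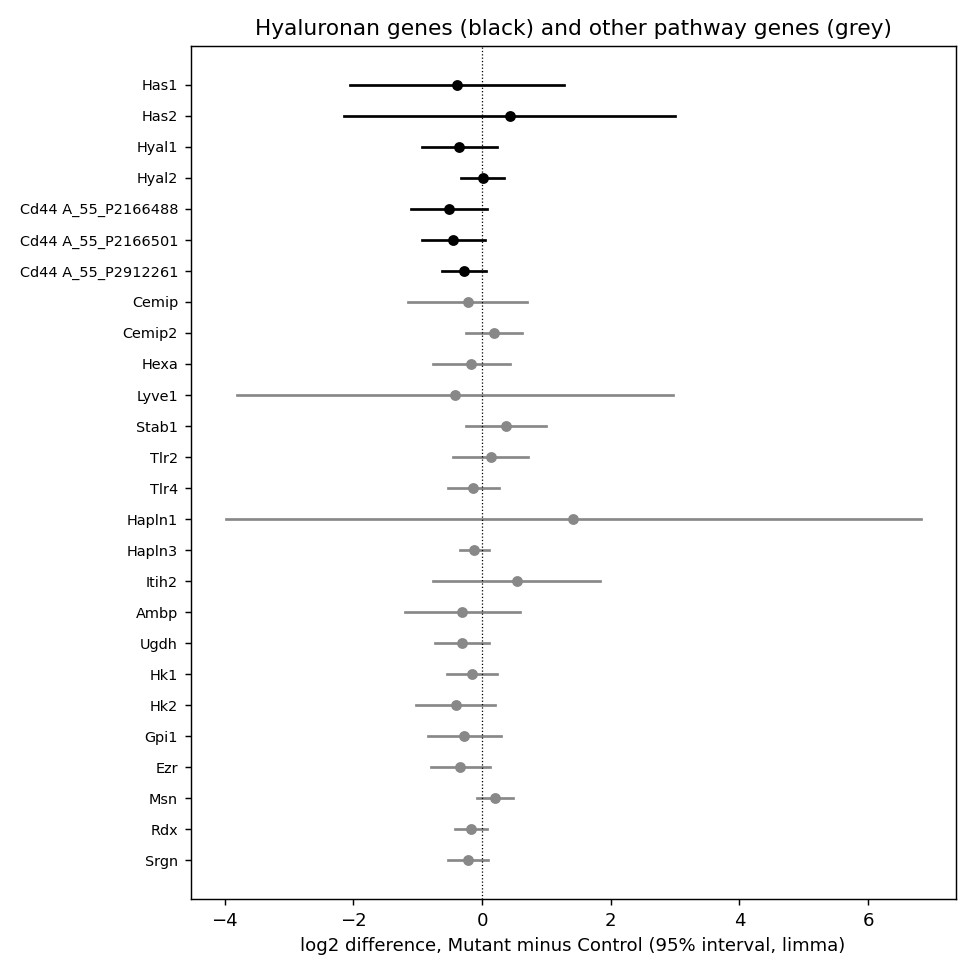
Log2 difference, Mutant minus Control, with its 95% interval from limma (horizontal axis) for 5 hyaluronan genes, Cd44 by probe (black), and for 19 other genes of the pathway (grey). Every interval crosses 0; those of Hapln1, Lyve1, Has2 and Has1 are the widest, and that of Hyal2 runs from -0.33 to 0.34.

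The genes whose tumour pattern was nearest to the other members were given by the same measure, over 8 tumours. For Has1 they were Sdcbp2 (r = 0.97, rho = 0.90), Snx7 (r = 0.97, rho = 0.83) and Nipal1 (r = 0.97, rho = 0.93), with r = 0.98, 0.92 and 0.88 without Control 1 and Control 4. For Hyal1 they included the deubiquitinase Bap1 (r = 0.99) and the olfactory receptor Olfr1153 (r = 0.98), with r = 0.98 and 0.94 without Control 4 and Mutant 2. For Hyal2 they were Dmtf1 (r = 0.98), Gpr25 (r = 0.98) and Thoc2l (r = 0.97), with r = 0.94, 0.93 and 0.90 without Mutant 4 and Control 4. For Cd44 they were Mosmo (r = 0.93), Golt1b (r = 0.93) and Ctdspl2 (r = 0.92), with r = 0.74, 0.60 and 0.69 without Mutant 1 and Mutant 2, so that the likeness to Cd44 rests in part on these tumours.

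Of 13 genes linked to the supply of sugar nucleotides to the synthases, all measured, 3 lay above 0 and 10 below. Gnpnat1, counted below, was at -1.7e-05. In this list 0 passed the test, adjusted or unadjusted. The median difference of -0.07 turned to 0.04 without Control 4 and to 0.02 with array weights, and was 0.10 within the first slide row and -0.33 within the second. Ugdh, which makes UDP-glucuronic acid, read 3.46, 3.91, 3.57 and 3.45 in Mutant tumours and 3.69, 3.64, 4.22 and 4.10 in Control tumours. Mutant 2 exceeded Control 1 and 2 there, and the difference was -0.32 with a 95% interval of -0.73 to 0.10 (limma adjusted p = 1.00). The hexokinases Hk2 and Hk1 differed by -0.41 and -0.16, and Gpi1, which interconverts the hexose phosphates, by -0.28. Uap1, which makes UDP-N-acetylglucosamine, was at 3.19 ± 0.16 in Mutant and 3.07 ± 0.28 in Control tumours (SD, n = 4 each).

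Of 10 further genes of hyaluronan breakdown, 6 were measured, 3 above 0 and 3 below, with a median difference of 0.04 (0.29 and -0.06 within the slide rows) and 0 past the test, adjusted or unadjusted. Hyal3, Hyal4, Hyal5 and Spam1 stood clear of background on 0 of 8 arrays. Cemip, through which fibroblasts depolymerise hyaluronan, read -1.72, -1.29, -2.88 and -2.16 in Mutant tumours and -1.89, -2.14, -2.15 and -0.95 in Control tumours, again highest in Mutant 2 and Control 4, the tumours with the most Has2 transcript. It differed by -0.23 (95% interval -1.15 to 0.69), and Cemip2, a transmembrane hyaluronidase, by 0.19 (-0.25 to 0.62). Hexa, which encodes a subunit of a lysosomal enzyme that trims hyaluronan fragments, differed by -0.17 (-0.77 to 0.43).

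The other hyaluronan receptors were all measured, 2 of 7 above 0 and 5 below, with a median difference of -0.05 and 0 past the test, adjusted or unadjusted. That median was 0.26 without Control 4, and 0.60 and -0.24 within the slide rows. Lyve1, a receptor of lymphatic endothelium and of some macrophages, read -5.64, -1.43, -3.80 and -4.37 in Mutant tumours and -4.37, -4.05, -5.80 and 0.68 in Control tumours. It was above background on 4 Mutant and 3 Control arrays. Mutant 2 and Control 4 stood apart from the rest here too, and the Lyve1 difference was -0.42 with a 95% interval of -3.80 to 2.96. Prox1, which defines lymphatic endothelium, stood clear of background on 0 of 8 arrays. The scavenger receptor Stab1, found on macrophages and sinusoidal endothelium, read 4.73, 4.01, 3.42 and 4.00 in Mutant tumours and 3.90, 3.63, 3.35 and 3.77 in Control tumours. Its difference was 0.38 with a 95% interval of -0.25 to 1.00, while Tlr2 and Tlr4, which sense hyaluronan fragments, differed by 0.13 and -0.14.

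Among 15 matrix proteins that bind hyaluronan or are linked to it, 10 were measured, 5 on each side of 0, with a median difference of -0.04 and 0 past the test, adjusted or unadjusted. That median was -0.22 without Control 3, and -0.41 and 0.23 within the slide rows. Hapln1, the link protein that fixes proteoglycans on hyaluronan, read -1.32, -0.16, 0.77 and -4.90 in Mutant tumours and 1.39, 0.90, -5.48 and -8.07 in Control tumours. It was above background on 4 Mutant and 2 Control arrays, the groups overlapped, and its difference of 1.41 had a 95% interval of -3.99 to 6.82. Itih2, a heavy chain that is transferred to hyaluronan, differed by 0.54, Ambp, which encodes bikunin, by -0.31 and Hapln3 by -0.12. Vcan, the large proteoglycan versican, was at -2.33 ± 0.26 in Mutant and -2.14 ± 0.80 in Control tumours (SD, n = 4 each). Tnfaip6, the enzyme that transfers the heavy chains, was above background on 1 Mutant and 2 Control arrays and was left out by the filter.

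Partners, ligands and proteases of Cd44, listed together with the splicing regulators Esrp1 and Esrp2, numbered 14, all measured. Of these, 7 lay on each side of 0, with a median difference of 0.00 and 0 past the test, adjusted or unadjusted. The proteins that tie Cd44 to actin went to different sides: ezrin (Ezr) differed by -0.34 (95% interval -0.80 to 0.11), radixin (Rdx) by -0.18 (-0.42 to 0.07) and moesin (Msn) by 0.21 (-0.07 to 0.49). Rdx read 2.47, 2.45, 2.67 and 2.61 in Mutant tumours and 2.88, 2.60, 2.73 and 2.69 in Control tumours, with only Control 2 within the Mutant range. The ligand serglycin (Srgn) differed by -0.22. Osteopontin (Spp1), another ligand, was at 7.86 ± 0.12 in Mutant and 7.96 ± 0.62 in Control tumours, and the sheddase Mmp14 at 1.45 ± 0.21 in Mutant and 1.65 ± 0.80 in Control tumours (SD, n = 4 each). The limma adjusted p was 1.00 for each measured gene named in these 5 lists.

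**Figure D4:**
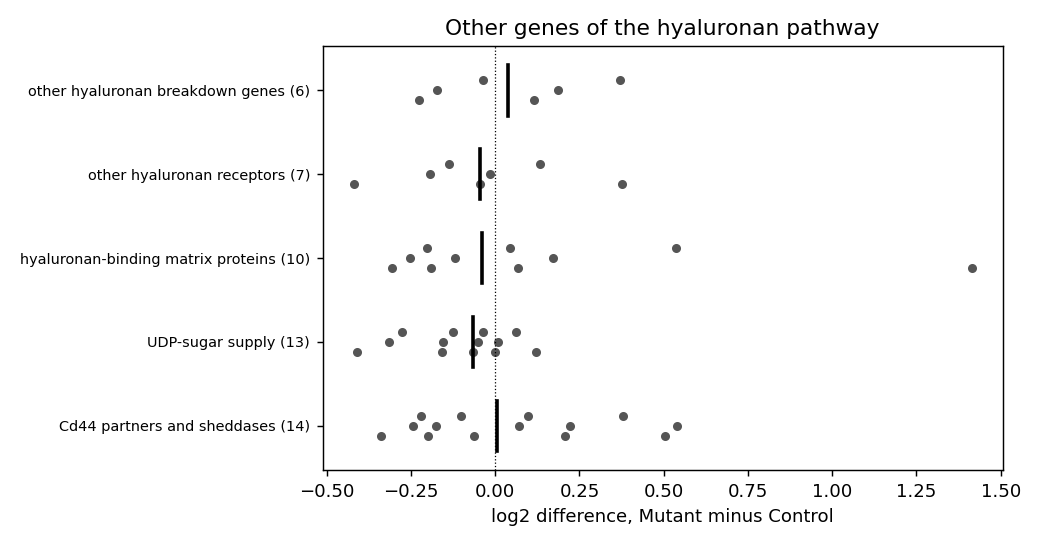
Log2 difference, Mutant minus Control (horizontal axis), of each measured gene in 5 lists of the hyaluronan pathway, with the number measured in brackets; a dot is a gene and the bar the median of its list. The medians lie between -0.07 and 0.04, and Hapln1 at 1.41 is the point farthest from 0.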

How the data were processed

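Per the labels, total RNA of 8 tumours (4 Mutant, 4 Control; the design text gives 4 mice per group) was labelled with Cy3 from 0.5 ug. Per the file headers, Agilent Feature Extraction 10.7.3.1 made the intensity values, with background subtracted and spatial trends removed within the array; the submitters' processing notes name version 9.1. The deposited flag columns carry no unit (other). The authors' deposited value table holds the same intensity, within 0.01% for 99.5% of probes on each array, unscaled between arrays (column medians 52.8 to 61.8), with no ratio or direction. Accessions were matched without version to a RefSeq gene table of GRCm38.p6, which named 32994 of 56605 probes; coordinates are left out because the headers give a different build. No probe or transcript sequences were used here.

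Outlier and control spots were removed, spots of a probe averaged, and log2 intensity centred on each array's 75th percentile. Probes flagged as well above background on fewer than 4 of 8 arrays were dropped, and the probe of highest mean stood for a gene (16068 genes). Groups were compared with limma 3.58.1 (R 4.3.3), Benjamini-Hochberg over all genes, and single genes also by exact permutation over 70 arrangements. The procedure was tested on simulated data. Precision is limited by 4 arrays per group. Members, lists and tests were chosen with earlier results of these data known. Named genes are the members, up to 4 genes of smallest p per pathway list and the 3 nearest in pattern to each member (some genes that these rules name are not reported here); Uap1, Vcan, Tnfaip6, Spp1, Mmp14, Hyal3, Hyal4, Hyal5, Spam1 and Prox1 were named for their role, after their values were seen. Alternatives covered normexp background correction (on median spot signals), quantile normalization, median centring, 3 other filters, the mean of probes, array weights, a trended variance, values from the deposited table, blocks for slide row or for replicate number, each slide row alone, and each tumour left out in turn. Tumours were treated as independent.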

Additional observations from a re-analysis of the deposited data

Results flagged for a closer look

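In 26 groups of 4 values (8 probes and 5 list levels, each in both host types), the gap of the highest or lowest tumour to the next was compared with the whole range of its group; chance alone gives such a gap in about 1 in 20 groups. In 4 groups the gap was past the 95% critical value of Dixon's test. Has1 was low in Mutant 1, at -1.75 against -0.80 to -0.67 in the other Mutant tumours. Has3 read -5.02 in Control 2, the only array on which it was well above background. Hyal2 was low in Control 4, at 2.44 against 2.86 to 2.94 in the other Control tumours. The level of the 7 other hyaluronan receptors was high in Control 4, at 0.97, against -0.42 to -0.22 in the other Control tumours.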

How the results depend on the processing

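Every alternative left each hyaluronan gene without a call at an adjusted p under 0.05, and 0 genes of the whole array were called under any. The other filters, the variance trend, both blocks and the exact test leave a difference as it is by construction. Of the 76 values that moved among Has1, Has2, Hyal1, Hyal2 and Cd44, 13 turned their sign. The Cd44 difference was -0.49 to -0.07 over its alternatives, and -0.38 to -0.20 with a tumour left out; that of Hyal1 was -0.55 to -0.21 and that of Has1 -1.14 to -0.028 with a tumour left out. For Has2 that range was -0.21 to 1.41, with a turned sign without Mutant 2 (-0.21), Control 1 (-0.15) and Control 3 (-0.024), and it was 0.031 with normexp and 1.23 with array weights. For Hyal2 it was -0.11 to 0.057, turned without Mutant 4 (-0.062) and Control 4 (-0.11). Array weights turned Has1 (0.34) and Hyal2 (-0.067), normexp turned Hyal2 (-0.0050), and median centring turned Hyal2 (-0.015). Within the first slide row Has1 (0.32) and Hyal2 (-0.22) turned, and within the second Has2 (-1.31) and Hyal1 (0.082). The cause was not tested. Has3 readings at background gave 0.44, -0.069 with normexp, -0.080 within the first row and 0.14 to 1.13 with a tumour left out, from which no direction is read. Genes at an unadjusted p under 0.05 numbered 467, 1387 with array weights, 1912 within the first slide row and 195 to 972 with a tumour left out (195 without Mutant 1, 257 without Mutant 4, 305 without Control 1, 972 without Control 2). The median of Cd44 partners was -0.074 with array weights, -0.19 and 0.12 within the rows and -0.079 to 0.11 with a tumour left out; within the first row that of other breakdown genes was 0.29 and that of other receptors 0.60. With a tumour left out the medians were -0.041 to 0.14 for other breakdown genes, -0.16 to 0.26 for other receptors, -0.22 to 0.042 for matrix proteins and -0.16 to 0.036 for sugar supply. The labels number tumours 1 to 4 in each group, but same-numbered tumours did not deviate together (correlations of 0.08, -0.31, 0.05 and -0.31). The numbers were not used to pair them, though the check cannot exclude a pairing, which need not leave correlated deviations. A balanced block cannot move a difference, and with the replicate number as a block the limma adjusted p was 1.00 for Cd44 (-0.28). Has2 under the filter for all 8 arrays and Has3 under the filters for 4 or 8 arrays could not be fitted. Has3 and, on Control 1, Has2 lie at the limit of signal over background.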
